A study of Mus musculus with 18 samples.

Results

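The comparison asked whether DPCP changed gene expression to an unequal degree in the mouse dorsal skin populations labelled EpSCs and Germ. For each gene, the DPCP effect (log2 fold change, DPCP minus control) in EpSCs was set against the DPCP effect in Germ, and the difference (EpSCs effect minus Germ effect) was tested. Every gene ID of the deposited table entered, 13816 in all. The difference drew on 12 of the 18 samples of the series, 3 in each of 4 groups: Control EpSCs and Control Germ, collected at day 0, and DPCP EpSCs and DPCP Germ, collected at day 2. The chemical DPCP, in full diphenylcyclopropenone, sensitizes skin on contact and brings on an allergic inflammation there. The other 6 samples, from a population labelled Bulge, served only as a further reading of the same genes. Skin was digested with trypsin and cells were sorted by flow cytometry, and the labels call the cells keratinocytes without spelling out EpSCs. Strain, age and sex are not given in the labels used here. Controls and DPCP samples differed in day as well as in treatment, so an effect of DPCP and one of the day cannot be told apart. Values per library were not used, because no sample label fits the names of those columns, so no level, no replicate spread and no check of the sorted populations against marker levels can be given, and the sequencing depth is unknown.

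The hair follicle is renewed by stem cells of the bulge and by the hair germ just below it, whose cells divide first when a new hair begins to grow. Wnt signals drive that start and BMP signals hold it back. Above the bulge, the upper follicle and the sebaceous duct keep their own progenitors and join the epidermis, where keratinocytes leave the basal layer and build the cornified envelope. In contact allergy, a reactive chemical binds skin proteins, T cells recognise them, and keratinocytes answer with cytokines, stress keratins and detoxifying enzymes.

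The DPCP effect differed between EpSCs and Germ for 1690 genes, 12.2% of those tested, at an adjusted p under 0.05. For 796 genes (5.76%) the effect was higher in EpSCs, and for 894 genes (6.47%) it was lower. Among the 796, the median DPCP effect in the authors' deposited table was 1.54 in EpSCs and −0.45 in Germ. Among the 894, it was −1.68 in EpSCs and 1.17 in Germ in the authors' deposited table. The effects had opposite signs for 640 of the 796 genes and 813 of the 894, against 5105 of all 13816 genes. Picking genes by a large difference favours opposite signs, so these medians and counts describe the called genes and test nothing. Most of these opposite signs did not come with a call in each population: the difference was called together with calls of opposite sign in both populations for 21 genes. Of the other called differences, 1353 belonged to genes that the authors' deposited table called in EpSCs alone, 43 to genes called in Germ alone, 267 to genes called in neither and 6 to genes called in both with 1 direction. The standard errors, rebuilt from the deposited p-values, had a median of 0.29 for EpSCs and 0.39 for Germ and were larger in Germ for 77.4% of genes.

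**Figure D1:**
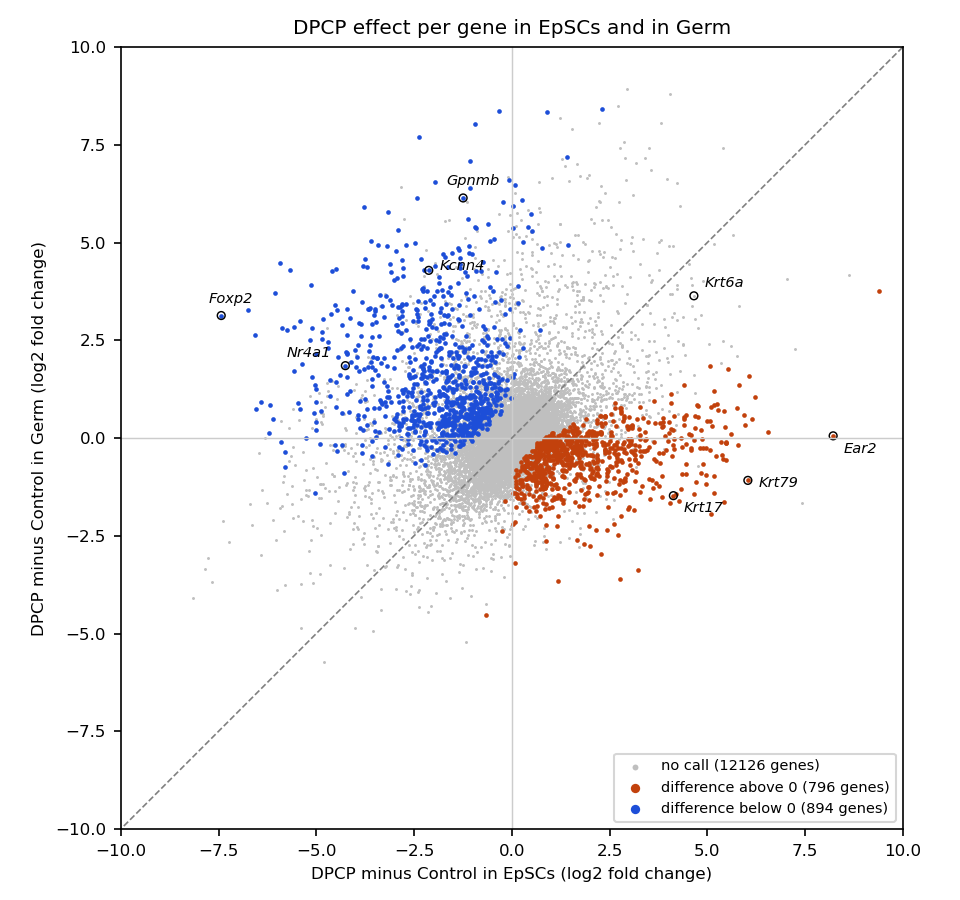
DPCP effect in EpSCs (x axis) and in Germ (y axis), both as log2 fold changes, for each of 13816 genes; the dashed line marks equal effects. The 796 genes with a difference above 0 lie to the lower right and the 894 with a difference below 0 to the upper left, and Krt6a, whose difference was not called, lies near the line.

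The authors' deposited table called 2748 genes higher (19.9%) and 2768 lower (20%) in EpSCs, and 117 higher (0.847%) and 29 lower (0.21%) in Germ. Of the 2748 genes higher in EpSCs, the difference was called for 706. Of the 2768 lower in EpSCs, it was called for 674. For Germ it was called for 70 of 146, of which 53 had the lower effect in EpSCs. Of 5448 genes called in EpSCs and not in Germ, the difference was called for 1353, and 3439 had neither a called difference nor a 95% interval of it within 1 log2 unit of 0. For 656 of the 5448 the interval lay within 1 unit. Over all genes this held for 2844. These counts use the fold changes that also make the difference, and are a description.

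Part of the genes of the upper follicle and sebaceous duct, and part of those of the suprabasal layers and the cornified envelope, had a higher DPCP effect in EpSCs than in Germ. Of 12 upper follicle genes measured, 8 had a called difference above 0 and 1 below, and the median difference was 2.56, against −0.02 over all genes. Of 20 suprabasal and cornified envelope genes, 9 had a called difference above 0 and none below, with a median of 1.50, and 11 were not called. Cst6 belongs to both lists. Over all genes, 5.76% had a called difference above 0 and 6.47% below. The median effects of the upper follicle genes in the authors' deposited table were 2.33 in EpSCs and −0.89 in Germ. Those of the suprabasal genes were 0.58 and −1.04 in the authors' deposited table.

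Krt79, a keratin of the upper follicle opening, had the smallest p of all 13816 genes. Its DPCP effect in the authors' deposited table was 6.04 ± 0.89 (rebuilt SE) in EpSCs and −1.08 ± 0.47 in Germ. The difference was 7.12 ± 1.01 (SE, adjusted p = 2.37e-08), with a 95% interval from 5.14 to 9.10. In Bulge the authors' deposited table gave Krt79 an effect of 1.17 (adjusted p = 0.159). Krt17, a keratin of the outer root sheath and of injured epidermis, showed the same pair of signs, with effects of 4.13 and −1.47 in the authors' deposited table and a difference of 5.61 ± 0.93 (adjusted p = 1.9e-06). Defb6, a beta-defensin gene, had effects of 3.23 in EpSCs and −3.38 in Germ in the authors' deposited table, a difference of 6.61 ± 1.32 (adjusted p = 8.76e-05). Cst6, which encodes the protease inhibitor cystatin M/E, differed by 6.57 ± 1.14 (adjusted p = 5.08e-06).

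The transcription factor gene Gata6 and the progenitor surface genes Plet1 and Lrig1 followed the same pattern with smaller differences. Gata6 differed by 4.81 ± 0.81 (adjusted p = 3e-06), Plet1 by 2.77 ± 0.57 (adjusted p = 0.000137) and Lrig1, which restrains growth factor receptors, by 2.35 ± 0.59 (adjusted p = 0.00194). Their Germ effects in the authors' deposited table lay between −0.97 and −0.20, and none was called. Sostdc1, which encodes a secreted BMP and Wnt inhibitor, differed by 2.29 ± 0.50 (adjusted p = 0.000365). Krt75, a keratin of the companion layer, went the other way: its effect in the authors' deposited table was 0.16 in EpSCs and 3.45 in Germ (adjusted p = 0.0232), a difference of −3.29 ± 1.05 (adjusted p = 0.0207). The surface antigen gene Ly6a, also on this list, had a difference of −0.68 (95% interval from −2.10 to 0.75, adjusted p = 0.613).

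Within the suprabasal list, the differences ran from −0.78 for the transglutaminase gene Tgm3, which was not called, to 6.57 for Cst6. Calml3, a calmodulin-like gene of the epidermis, differed by 5.36 ± 1.07 (adjusted p = 8.89e-05). Tgm1, the envelope transglutaminase, differed by 4.88 ± 1.21 (adjusted p = 0.00178). Its effects in the authors' deposited table were 4.85 in EpSCs and −0.02 in Germ. Dsc1, a desmosomal cadherin, differed by 4.55 ± 0.86 and the shedding protease gene Klk7 by 4.30 ± 0.97 (adjusted p = 3.05e-05 and 0.000561). Ivl, which encodes the envelope scaffold involucrin, differed by 4.15 ± 0.81 (adjusted p = 6.53e-05). Krt1 had negative effects in both populations in the authors' deposited table, −1.32 in EpSCs (adjusted p = 0.00794) and −3.22 in Germ (adjusted p = 0.0385), and its difference of 1.90 ± 0.97 was not called (adjusted p = 0.202). Krt10, the partner of Krt1, had a difference of −0.35 ± 0.55 (adjusted p = 0.748).

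Of 18 genes of the hair germ and early anagen, 5 had a called difference below 0 and none above, and 13 were not called (median difference −1.21, with 5 of the 18 above 0). The shares called over all genes were 6.47% below 0 and 5.76% above. Their median effects in the authors' deposited table were −1.22 in EpSCs and 0.65 in Germ. Lef1, a Wnt effector of the germ, had effects of −4.88 in EpSCs and 0.68 in Germ in the authors' deposited table, a difference of −5.56 ± 1.50 (adjusted p = 0.00496). The homeobox gene Msx1 differed by −6.66 ± 1.81 (adjusted p = 0.00541) and Msx2 by −3.25 ± 1.09 (adjusted p = 0.0306). Bmp4, a BMP ligand, differed by −4.03 ± 1.12 (adjusted p = 0.00675). Cdh3, the P-cadherin gene that marks the germ, had small effects of opposite sign in the authors' deposited table, −0.93 in EpSCs and 0.91 in Germ, and differed by −1.84 ± 0.50 (adjusted p = 0.00557). None of these 5 genes was called in Germ by itself: the calls in the authors' deposited table were all for lower expression in EpSCs. Axin2, a Wnt target, had effects of −1.13 and −1.82 in the authors' deposited table and a difference of 0.69 ± 0.63 (adjusted p = 0.537). With the larger of both standard errors used for each gene, 2 of the 18 genes were called, and with the stricter Benjamini-Yekutieli adjustment none was.

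Bulge stem cell genes were divided, with 4 of 20 called above 0 and 3 below, against 5.76% and 6.47% over all genes (median difference 0.33). Cd200, a surface glycoprotein of bulge cells, had an effect of 5.08 in EpSCs and −0.30 in Germ in the authors' deposited table, a difference of 5.37 ± 0.83 (adjusted p = 2.86e-07). Foxc1 differed by 4.24 ± 0.76, Sox9 by 2.36 ± 0.66 and the activin antagonist gene Fst by 2.11 ± 0.58 (adjusted p = 1.14e-05, 0.00722 and 0.00625). Both Foxc1 and Sox9 encode transcription factors of follicle stem cells. Below 0 were Fgf18, a growth factor of the resting follicle, at −4.13 ± 1.10, the matrix gene Npnt at −2.92 ± 0.75 and Dkk3 at −2.10 ± 0.65 (adjusted p = 0.0042, 0.00275 and 0.0159). The sorting antigen gene Cd34 differed by 0.31 (95% interval from −1.71 to 2.34), Lgr5 by 1.28 (−0.79 to 3.36) and Krt15 by −0.71 (−1.74 to 0.32), and none of these was called (adjusted p = 0.889, 0.484 and 0.421). Itga6, which encodes the integrin often used to sort basal cells, differed by −0.95 ± 0.44 (adjusted p = 0.144).

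**Figure D2:**
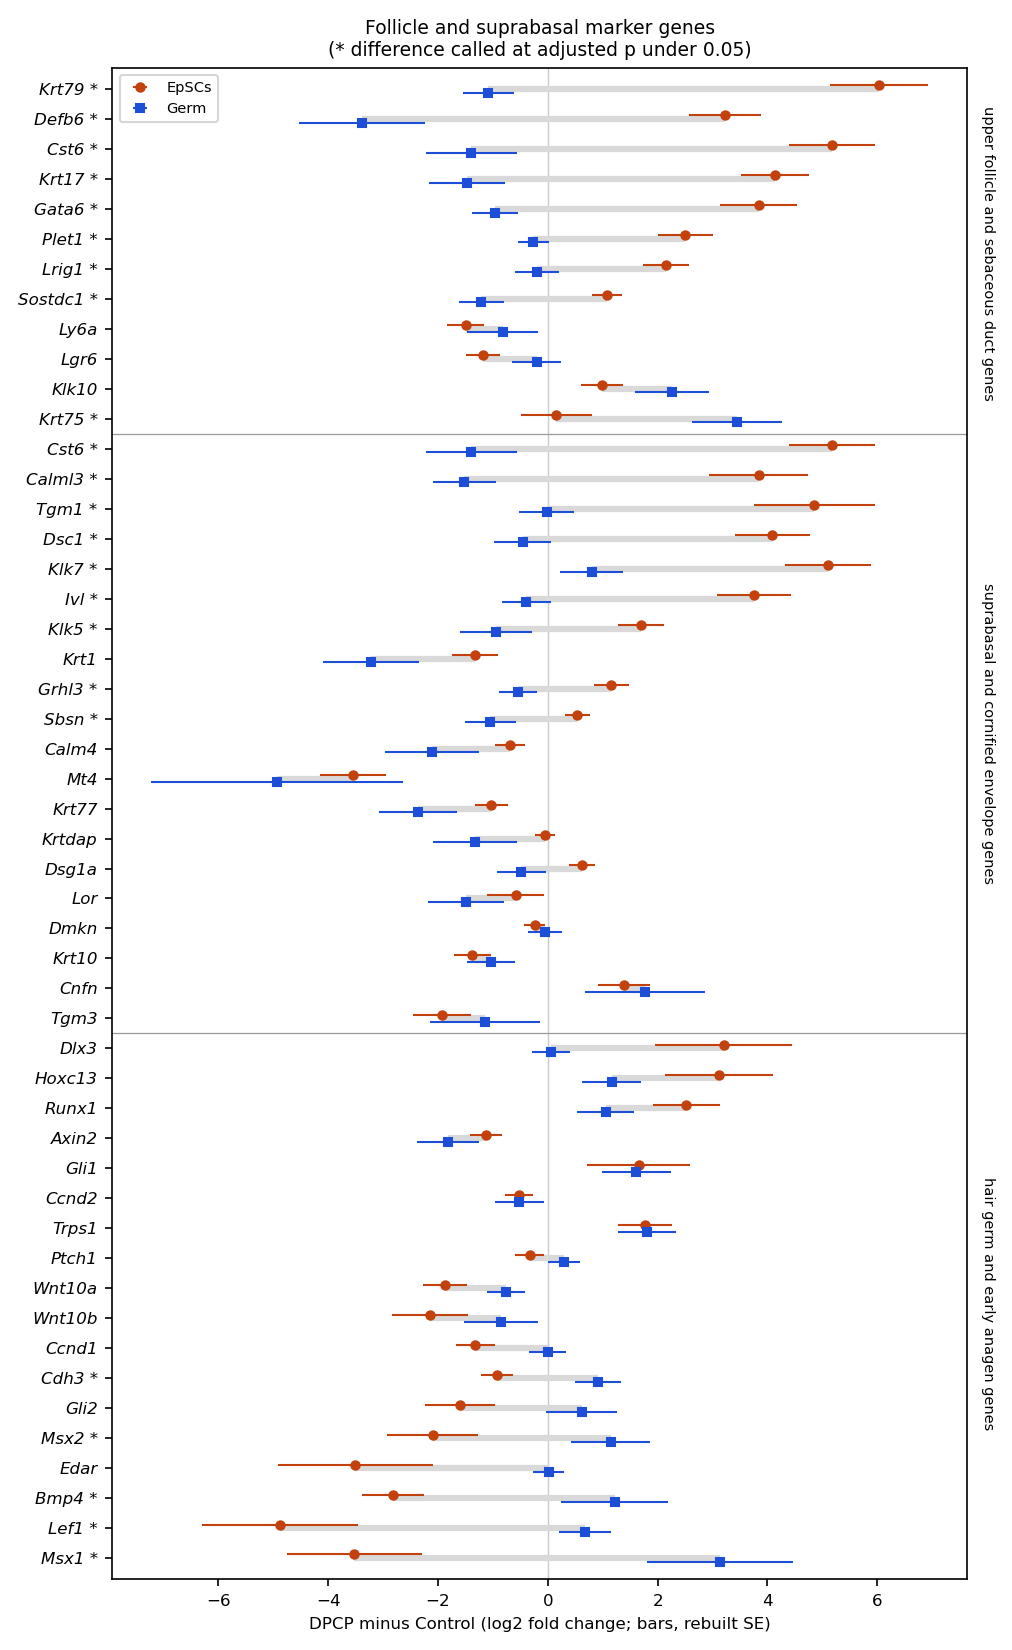
DPCP effect (x axis, log2 fold change) in EpSCs and in Germ for upper follicle, suprabasal and hair germ genes (y axis); bars are standard errors rebuilt from the deposited p-values, and an asterisk marks a called difference. Most upper follicle genes lie above 0 in EpSCs and below 0 in Germ, while Msx1, Lef1, Bmp4, Msx2 and Cdh3 lie below 0 in EpSCs and above 0 in Germ.

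Immediate early genes, which cells switch on within minutes of a stimulus, gave the largest share of calls in 1 direction among the lists of 20 genes or more. Of 23 measured, 14 had a called difference below 0 and 1 above, against 6.47% and 5.76% over all genes. The median difference was −2.11. The authors' deposited table put their median effect at −1.75 in EpSCs and 0.29 in Germ, with 17 of 23 called lower in EpSCs and none called in Germ. Nr4a1, an orphan nuclear receptor gene, had effects of −4.26 in EpSCs and 1.85 in Germ in the authors' deposited table, a difference of −6.11 ± 1.08 (adjusted p = 8.78e-06). The AP-1 genes Fos, Fosb, Junb, Jun and Jund differed by −3.16 ± 0.68, −3.67 ± 0.83, −1.91 ± 0.51, −1.65 ± 0.48 and −1.45 ± 0.43 (adjusted p = 0.000265, 0.000589, 0.00448, 0.0111 and 0.0122). Their Germ effects in the authors' deposited table lay between −0.30 and 0.60, while their EpSCs effects lay between −3.49 and −1.32. Myc differed by −3.05 ± 0.64 (adjusted p = 0.000186), Egr1 by −2.81 ± 0.67 (adjusted p = 0.0011) and Atf3, a stress-induced factor, by −4.12 ± 1.22 (adjusted p = 0.0113).

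The exception was Egr2, another early growth response factor, with effects of 1.92 in EpSCs and 0.08 in Germ in the authors' deposited table and a difference of 1.84 ± 0.66 (adjusted p = 0.0447). Zfp36, which encodes an mRNA decay factor for cytokine transcripts, differed by −2.92 ± 0.70 (adjusted p = 0.00119), and Klf6 by −2.17 ± 0.50 (adjusted p = 0.000781). Ptgs2, the inducible cyclooxygenase gene, had the largest difference of the list but also the widest error, −6.91 ± 2.71 (adjusted p = 0.072). Fosl2, Ier3, Ier5 and Klf4 had differences between −0.33 and 0.20, and none was called. In Bulge, 21 of the 23 genes had effects above 0 in the authors' deposited table, and Ptgs2 and Nr4a2 lay below 0. With the larger of both standard errors, 9 of the 23 genes kept a call below 0, and 8 with the Benjamini-Yekutieli adjustment.

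**Figure D3:**
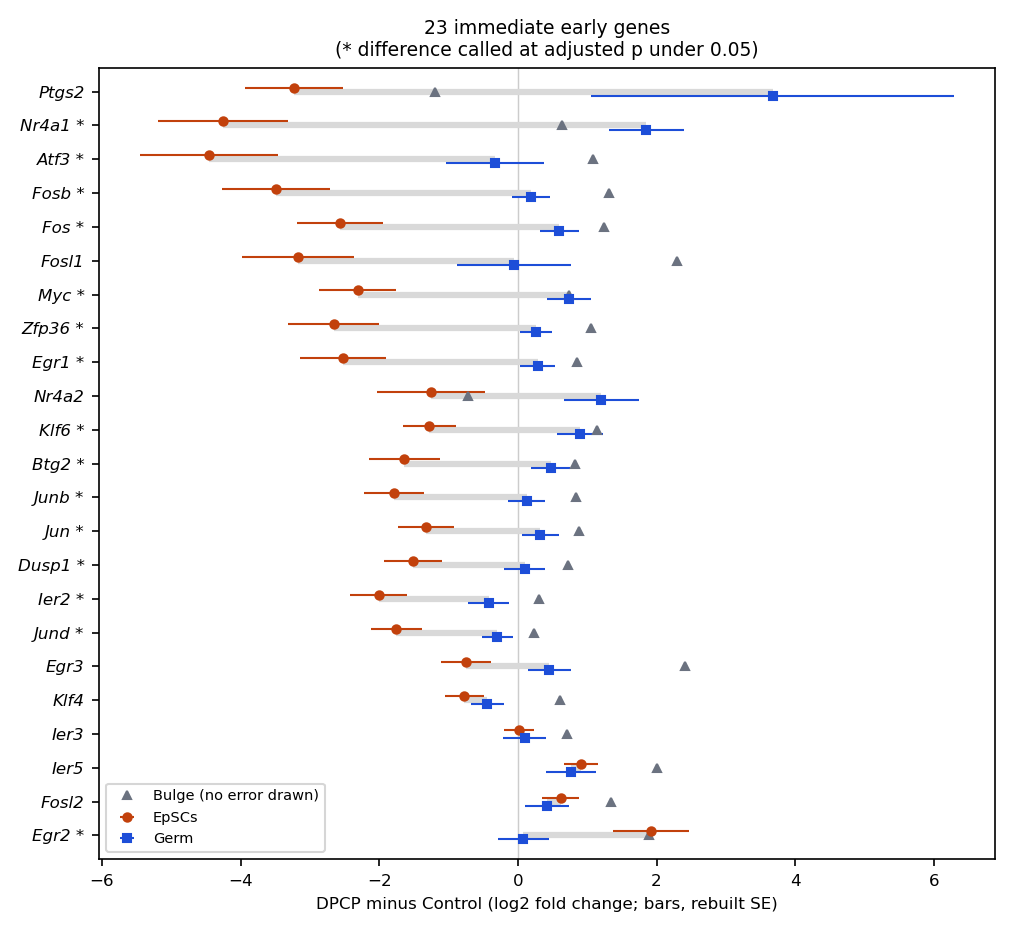
DPCP effect (x axis, log2 fold change) of 23 immediate early genes (y axis) in EpSCs, Germ and Bulge; bars are standard errors rebuilt from the deposited p-values, drawn for EpSCs and Germ. The EpSCs effects of the 14 genes called below 0 lie between −4.46 and −1.28, and their Germ effects between −0.42 and 1.85.

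The full cAMP response element, TGACGTCA, the site of the CREB and ATF factors that start many immediate early genes, was looked for on both strands from 250 bases before to 50 bases after each gene start in RefSeq (GRCm38.p6). It lay in 2 of the 18 immediate early genes with such a window, Btg2 and Dusp1, against 3.5% of 10782 measured genes with a window. Both genes had called differences below 0, −2.11 ± 0.59 for the antiproliferative gene Btg2 and −1.61 ± 0.52 for Dusp1, a MAP kinase phosphatase gene (adjusted p = 0.00631 and 0.0214). They are shown because they are the members of the list that hold the element. The sequences run from 250 bases before to 12 bases after the gene start, on the minus strand, at chr1:134079144-134079405 for Btg2 and chr17:26508461-26508722 for Dusp1, with the element in capitals.
Btg2: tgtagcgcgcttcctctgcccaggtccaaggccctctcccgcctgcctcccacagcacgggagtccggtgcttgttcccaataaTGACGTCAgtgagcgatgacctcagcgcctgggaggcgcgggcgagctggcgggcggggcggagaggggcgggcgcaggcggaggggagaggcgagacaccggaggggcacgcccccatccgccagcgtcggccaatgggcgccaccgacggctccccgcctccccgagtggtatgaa
Dusp1: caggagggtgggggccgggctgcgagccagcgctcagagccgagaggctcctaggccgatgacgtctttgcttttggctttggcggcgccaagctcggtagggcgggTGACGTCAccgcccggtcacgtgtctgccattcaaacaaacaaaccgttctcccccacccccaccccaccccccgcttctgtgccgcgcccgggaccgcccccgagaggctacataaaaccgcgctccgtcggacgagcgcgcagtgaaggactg
The element starts 166 bases before the gene start in Btg2 and 143 bases before it in Dusp1. Most members with called differences do not hold these letters in the window, so the match describes these genes only.

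The largest differences had negative sign. Of the 12 largest named here, 10 belonged to genes that the authors' deposited table called lower in EpSCs, and none of the 12 was called in Germ. Foxp2, a forkhead factor, had effects of −7.43 in EpSCs and 3.13 in Germ in the authors' deposited table, and its difference was −10.56 ± 2.17 (adjusted p = 0.000137). The sodium channel gene Scn3a differed by −10.41 ± 2.54 (adjusted p = 0.00152), and Col5a3, a fibrillar collagen gene, by −10.03 ± 2.10 (adjusted p = 0.000187). Cdh2, the N-cadherin gene, differed by −9.98 ± 2.23 (adjusted p = 0.000476), the ephrin receptor gene Epha7 by −9.78 ± 2.17 (adjusted p = 0.000448), and Zeb2 and Prrx1, transcription factors of mesenchymal cells, by −9.68 ± 2.28 and −9.22 ± 2.25 (adjusted p = 0.00103 and 0.00154). Glis3, Gria4 and Opcml differed by −9.07, −8.94 and −8.87. Insc, an adaptor for oriented cell division, and Syt4, a vesicle protein gene, were called in neither population by the authors' deposited table, with differences of −10.08 ± 2.54 and −8.98 ± 2.63 (adjusted p = 0.00232 and 0.0106). The deposited fold changes have no stated floor, so the size of such a difference cannot be bounded for a gene of low expression.

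At the positive end stood Ear2, a ribonuclease gene of the eosinophil-associated family, with effects of 8.22 in EpSCs and 0.06 in Germ in the authors' deposited table and a difference of 8.16 ± 1.98 (adjusted p = 0.00151). Bulge had an effect of −3.07 for Ear2 in the authors' deposited table (adjusted p = 0.101). Prss35 and Rgs4, a regulator of G protein signalling, differed by 6.14 ± 1.35 and 6.03 ± 1.11 (adjusted p = 0.000388 and 1.91e-05), and both were lower in Bulge in the authors' deposited table, at −4.32 and −4.59 (adjusted p = 0.0265 and 0.0152). Nfe2l3, a relative of NRF2, differed by 5.97 ± 1.01 (adjusted p = 3e-06). Cep295nl, Hsd17b13, Skint2 and Grid2ip differed by 6.16, 5.93, 5.90 and 5.81. The smallest p-values after Krt79 were those of Alox12e, an epidermal lipoxygenase gene, and Cd200, each with a difference of 5.37 and an adjusted p of 2.86e-07. Below 0, the smallest were those of the adhesion adaptor gene Sorbs3 at −5.38 ± 0.86 (adjusted p = 8.63e-07) and the matrix gene Ecm1 at −2.96 ± 0.51 (adjusted p = 3.55e-06).

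**Figure D4:**
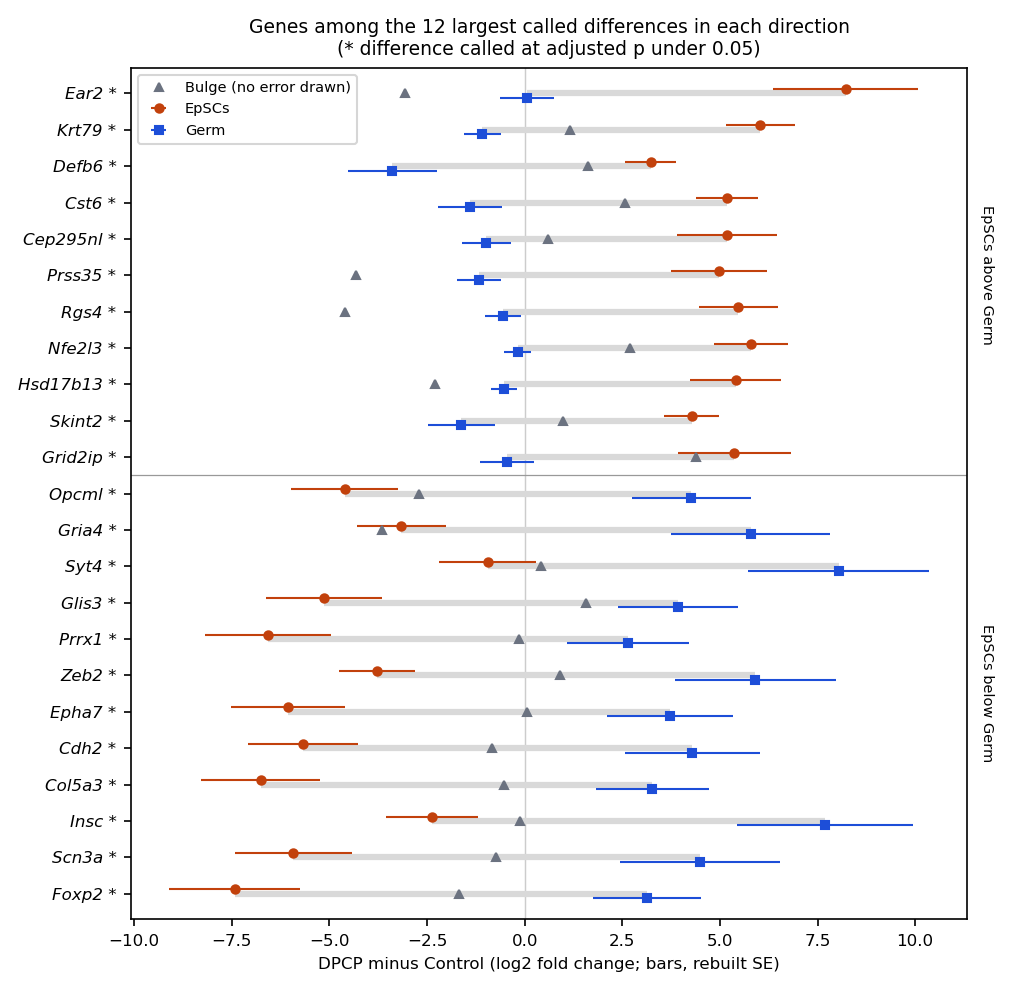
DPCP effect (x axis, log2 fold change) in EpSCs, Germ and Bulge for 11 genes with a difference above 0 and 12 below, drawn from the 12 largest called differences in each direction without predicted genes (y axis); bars are standard errors rebuilt from the deposited p-values, drawn for EpSCs and Germ. Genes with a positive difference lie far from 0 in EpSCs and near or below 0 in Germ, and those with a negative difference lie on both sides of 0, with wider bars.

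Opposite changes, called in both populations by the authors' deposited table, were found for 21 genes, of which 17 were lower in EpSCs and higher in Germ. Gpnmb, a glycoprotein gene of melanocytes and macrophages, had effects of −1.24 (adjusted p = 0.0463) in EpSCs and 6.14 (adjusted p = 0.0081) in Germ in the authors' deposited table, a difference of −7.38 ± 1.40 (adjusted p = 3.16e-05). Gucy1a1, a subunit of the nitric oxide receptor, differed by −7.56 ± 1.67, and the potassium channel gene Kcnn4 by −6.41 ± 1.42 (adjusted p = 0.000426 and 0.000434). The transcription factor gene Ets1 differed by −6.26 ± 1.27 (adjusted p = 0.000111) and Cp, the ferroxidase ceruloplasmin, by −5.82 ± 1.26 (adjusted p = 0.000298). Serpine2, a protease inhibitor gene, differed by −4.88 ± 0.95, and the myelin gene Pmp22 by −4.14 ± 0.75. Socs3, the feedback inhibitor of STAT3 signalling, had effects of −1.78 (adjusted p = 0.00407) and 1.70 (adjusted p = 0.0315) in the authors' deposited table, a difference of −3.48 ± 0.69 (adjusted p = 6.7e-05). Bcl2, which blocks cell death, differed by −3.39 ± 0.75, and the clock regulator gene Bhlhe40 by −2.70 ± 0.56. The others were Nrcam, Olfm1, Syngr1, Plod1, Nrg2, Plcb4 and Plk2, with differences between −5.03 and −3.47.

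The 4 genes higher in EpSCs and lower in Germ were Akr1c19, Gm32219, Gstm1 and Cxcl16. Cxcl16 encodes a chemokine that is made as a membrane protein, and it had effects of 1.07 in EpSCs and −1.52 in Germ in the authors' deposited table, a difference of 2.59 ± 0.49 (adjusted p = 3.33e-05). Akr1c19, an aldo-keto reductase gene, differed by 4.50 ± 1.02 (adjusted p = 0.000589), and in Bulge the authors' deposited table had it lower, at −5.73 (adjusted p = 0.0129). Among these 21 genes, the Bulge effect was nearer to the EpSCs effect than to the Germ effect for 12 of the 17 and for none of the 4.

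Genes called in Germ but not in EpSCs with a called difference numbered 43, of which 34 had the lower effect in EpSCs. Apod, a lipid-carrying apolipoprotein gene, had effects of −1.07 (adjusted p = 0.402) in EpSCs and 6.38 (adjusted p = 0.0081) in Germ in the authors' deposited table, a difference of −7.45 ± 1.73 (adjusted p = 0.000812). The glycosyltransferase gene B4galt5 also differed by −7.45, with a wider error of 2.26 (adjusted p = 0.0142). Itga9, an integrin subunit gene, differed by −6.56 ± 1.58 (adjusted p = 0.00141) and the axon guidance gene Sema3a by −6.17 ± 1.50 (adjusted p = 0.00152). The difference of Fam174b was −6.26 ± 1.82 (adjusted p = 0.00998). In Bulge, the authors' deposited table called Sema3a lower (−3.51, adjusted p = 0.0377) and none of the other 4.

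For 6 genes, the authors' deposited table had a rise in both populations and the rises differed in size. Igfl3, an IGF-like gene, rose by 9.40 in EpSCs and 3.77 in Germ in the authors' deposited table, a difference of 5.63 ± 1.89 (adjusted p = 0.03). Adcy7, an adenylate cyclase gene, Gpx2, a glutathione peroxidase gene, and Sulf2, which edits heparan sulfate, rose more in EpSCs too, by 4.45 ± 1.19, 3.76 ± 1.18 and 3.22 ± 1.17 (adjusted p = 0.00438, 0.0185 and 0.0486). Cnn3, an actin-binding calponin gene, and Xdh, which makes uric acid, rose more in Germ, with differences of −3.50 ± 1.13 and −2.04 ± 0.74 (adjusted p = 0.0233 and 0.0479).

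Signalling genes differed member by member, and no list of a whole pathway had a called majority. Their called counts are to be read against 5.76% above 0 and 6.47% below over all genes. In the EGF family, Btc, the ligand betacellulin, had effects of 4.40 in EpSCs and 0.54 in Germ in the authors' deposited table, a difference of 3.86 ± 0.97 (adjusted p = 0.00215). The ligand gene Hbegf went the other way at −2.31 ± 0.68 (adjusted p = 0.0105), and the receptor genes Erbb2 and Erbb3 both differed by 1.23 ± 0.42 (adjusted p = 0.0353 and 0.0328). Of 25 Wnt pathway genes, 3 had a called difference above 0 and 4 below (median −1.11). Fzd7, a Wnt receptor gene, differed by 4.29 ± 0.89 (adjusted p = 0.000159), and Fzd1 by 1.88 ± 0.65 (adjusted p = 0.0372). The ligand gene Wnt5a differed by −4.0 ± 0.88 (adjusted p = 0.000362), and Sfrp1, a secreted Wnt inhibitor, by −3.60 ± 1.04 (adjusted p = 0.00964). Apcdd1, a membrane inhibitor of Wnt signals, differed by 1.88 ± 0.54 (adjusted p = 0.00859).

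In the BMP and TGF-beta list, 3 of 25 genes had a called difference above 0 and 5 below, against 5.76% and 6.47% over all genes. Inhbb, which encodes the activin B subunit, differed by 3.91 ± 0.77 (adjusted p = 7.38e-05), and the ligand gene Bmp7 by 2.15 ± 0.62 (adjusted p = 0.00896). The ligand gene Bmp2 differed by −3.18 ± 0.81 (adjusted p = 0.00258), Id3, a BMP target, by −2.67 ± 0.57 (adjusted p = 0.000271), Tgfb1 by −2.13 ± 0.64 (adjusted p = 0.0129) and the receptor gene Tgfbr2 by −1.64 ± 0.55 (adjusted p = 0.0296). Notch and hedgehog genes gave 2 calls above 0 and 1 below among 17, against 12.2% called in either direction over all genes. The Notch target Nrarp differed by 1.79 ± 0.49 (adjusted p = 0.00532), Notch3 by 1.54 ± 0.56 (adjusted p = 0.0472) and the ligand gene Dll1 by −2.06 ± 0.70 (adjusted p = 0.0329).

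Matrix and migration genes had lower effects in EpSCs in 14 of 19 cases (median difference −1.82). Of these 19 genes, 4 were called below 0 and 1 above, against 6.47% and 5.76% over all genes. Fscn1, which bundles actin in protrusions, had effects of −0.41 in EpSCs and 4.25 in Germ in the authors' deposited table, a difference of −4.66 ± 1.02 (adjusted p = 0.000377). Fibronectin, Fn1, differed by −4.01 ± 1.0 (adjusted p = 0.00207), its integrin receptor gene Itga5 by −2.62 ± 0.94 (adjusted p = 0.0472) and the membrane protease gene Mmp14 by −2.45 ± 0.72 (adjusted p = 0.0104). Sdc1, a heparan sulfate proteoglycan gene of epithelia, differed by 2.10 ± 0.44 (adjusted p = 0.000215). In the hemidesmosome and basement membrane list, Col4a1 and Col4a2, the basement membrane collagen chains, differed by −3.86 ± 0.95 and −3.72 ± 0.96 (adjusted p = 0.00169 and 0.00292), and none of the other 14 genes was called. These 2 calls among 16 genes made a share near the 12.2% over all genes. Osteopontin, Spp1, which names the macrophages in the series' title, had effects of 1.23 in EpSCs and 8.20 in Germ in the authors' deposited table. Its difference of −6.96 ± 6.80 had a 95% interval from −20.28 to 6.36 (adjusted p = 0.568), so a difference in either direction was within the error. Its receptor gene Cd44 differed by 0.95 ± 0.44 (adjusted p = 0.149). Of 11 measured genes of osteopontin and its receptors, 8 had a difference below 0 (median −2.62). Called were 2 below 0, Itga5 and Itga9, and 0 above, against 6.47% and 5.76% over all genes.

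NRF2 is the factor that switches on detoxifying and antioxidant genes after exposure to reactive chemicals, and its targets did not all share a direction here. Of 20 measured, 15 had a difference above 0 and 5 below (median 0.67). Called were 4 above 0 and 2 below, against 5.76% and 6.47% over all genes. Nqo1, a quinone reductase gene, had effects of 1.97 in EpSCs and −0.64 in Germ in the authors' deposited table, a difference of 2.61 ± 0.49 (adjusted p = 2.7e-05). Gstm1, a glutathione transferase gene, differed by 2.68 ± 0.58 (adjusted p = 0.000317). Me1 and Pgd, enzymes that supply NADPH, differed by 1.58 ± 0.44 and 1.25 ± 0.35 (adjusted p = 0.00624 and 0.00629). The ferritin genes Fth1 and Ftl1, which store iron, went the other way at −3.84 ± 0.72 and −1.91 ± 0.49 (adjusted p = 2.7e-05 and 0.00284). Fth1 had effects of −2.66 in EpSCs and 1.17 in Germ in the authors' deposited table. Hmox1 and Srxn1, other NRF2 targets, had differences of 0.67 ± 0.63 and 0.13 ± 0.47 and were not called.

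The antioxidant response element, TGACNNNGC, the site through which NRF2 acts, was looked for on both strands in the same windows. It lay in 7 of the 16 NRF2 targets with a window, against 16.5% of 10782 measured genes with a window. Me1 and Pgd are shown because they hold the element close to the RefSeq start used here and had called differences. In Pgd this start follows a run of t and then cag, letters that also end introns, so it may not be where transcription begins. Both sequences run from 250 bases before to 12 bases after the RefSeq start on the minus strand (GRCm38.p6). They lie at chr9:86695903-86696164 for Me1 and chr4:149166071-149166332 for Pgd, with the element in capitals.
Me1: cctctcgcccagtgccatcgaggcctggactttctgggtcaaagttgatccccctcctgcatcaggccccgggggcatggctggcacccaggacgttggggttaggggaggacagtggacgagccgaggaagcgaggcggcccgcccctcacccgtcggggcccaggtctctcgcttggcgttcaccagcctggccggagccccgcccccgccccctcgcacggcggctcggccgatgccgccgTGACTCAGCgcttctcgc
Pgd: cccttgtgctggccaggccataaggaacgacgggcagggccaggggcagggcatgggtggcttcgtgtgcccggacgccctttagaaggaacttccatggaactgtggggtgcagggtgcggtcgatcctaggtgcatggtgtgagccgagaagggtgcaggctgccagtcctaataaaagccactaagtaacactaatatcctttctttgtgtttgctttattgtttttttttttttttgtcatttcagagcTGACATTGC
The other 5 matching genes, G6pdx, Gclm, Prdx1, Srxn1 and Txnrd1, had differences between −1.29 and 1.02, and none was called. The element was thus found in called and uncalled targets.

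In the lists of the inflammatory response, the share of called differences is to be read against the 12.2% called over all genes. Stress keratins and alarmins had median effects of 2.47 in EpSCs and 2.34 in Germ in the authors' deposited table, and 4 of 24 had a called difference. Krt6a, a keratin of wounded epidermis, rose by 4.66 in EpSCs and 3.64 in Germ in the authors' deposited table (adjusted p = 2.47e-06 and 0.0315). Its difference of 1.02 ± 1.23 had a 95% interval from −1.39 to 3.43 (adjusted p = 0.657). The called members were Krt17, the envelope precursor gene Sprr1a at 3.36 ± 0.81 (adjusted p = 0.00128), the fatty acid carrier gene Fabp5 at 1.86 ± 0.67 (adjusted p = 0.0492) and the alarmin gene Il33 at −2.15 ± 0.51 (adjusted p = 0.00127). Serpinb3a differed by 9.09 ± 3.35 without a call (adjusted p = 0.0523), and Sprr and Serpinb3 genes have near copies between which reads may be split.

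Interferon response genes had median effects of 1.63 in EpSCs and 1.96 in Germ in the authors' deposited table, and 3 of 29 had a called difference, a share near that over all genes. Cxcl9, a chemokine that draws T cells, had effects of 3.58 in EpSCs and −1.07 in Germ in the authors' deposited table, a difference of 4.64 ± 0.92 (adjusted p = 7.48e-05). Usp18, a brake on interferon signalling, differed by −4.25 ± 0.89 (adjusted p = 0.000166), and the RNA sensor gene Ifih1 by 0.85 ± 0.30 (adjusted p = 0.042). MHC class I and immunoproteasome genes had differences above 0 in 13 of 13 cases, of which 4 were called: H2-K1, Tap1, Psmb10 and B2m, at 1.06 ± 0.34, 1.14 ± 0.32, 1.19 ± 0.43 and 1.65 ± 0.51 (adjusted p = 0.0198, 0.00616, 0.0453 and 0.0166). H2-K1 and B2m encode the chains that show peptides to T cells, and Tap1 encodes part of the transporter that supplies those peptides. No MHC class II gene of 8 was called, and none had an unadjusted p under 0.05.

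Of 20 NF-kB feedback genes and chemokines, 5 were called, against 12.2% over all genes. Those called below 0 were Tnfaip3 and Nfkbiz, feedback regulators of NF-kB, at −2.02 ± 0.68 and −1.95 ± 0.52, and the adhesion gene Icam1 at −1.79 ± 0.55 (adjusted p = 0.0294, 0.00448 and 0.0159). The chemokine genes Ccl20 and Ccl27a were called above 0, at 3.27 ± 1.12 and 2.14 ± 0.61 (adjusted p = 0.0335 and 0.00873). The symbol Ccl27a stands for more than 1 gene ID in the table, and the other ID was not called. Neither Ccl20 nor Ccl27a rose in EpSCs: the authors' deposited table gave them 0.08 and −0.24 there, and −3.19 and −2.38 in Germ.

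Mitosis, respiratory and ribosomal genes had differences of 1 sign with few or no calls. All 24 mitosis genes had lower effects in EpSCs (median difference −0.78), with 3 called, a share near the 12.2% over all genes. The 3 were Aurkb, the cytokinesis kinase gene, at −2.38 ± 0.74, Ube2c, which serves mitotic exit, at −1.70 ± 0.48, and Prc1 at −1.28 ± 0.45 (adjusted p = 0.0169, 0.00807 and 0.0396). Mki67, the proliferation marker, had effects of 0.55 and 1.63 in the authors' deposited table and a difference of −1.08 ± 0.60 (adjusted p = 0.247). All 28 nuclear-encoded oxidative phosphorylation genes had higher effects in EpSCs (median 0.65), and so had 76 of 81 cytosolic ribosomal protein genes (median 0.52), with no call in either list by this test (4 oxidative phosphorylation genes and 0 ribosomal genes at an unadjusted p under 0.05). Both lists had median effects below 0 in both populations in the authors' deposited table. The ribosomal medians were −1.26 in EpSCs and −2.0 in Germ, and those of oxidative phosphorylation genes −0.33 and −1.0. In EpSCs that table called 75 ribosomal genes lower and none higher, and 9 oxidative phosphorylation genes lower and 3 higher. In Germ it called no gene of either list. Genes of a program vary together within a library, so their number does not add to the evidence as independent genes would. Mitochondrially encoded genes had medians of −2.55 and −2.42 in the authors' deposited table, and none of 12 was called different (1 at an unadjusted p under 0.05).

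In the other metabolic and stress lists single genes were called, and their number is to be read against the 12.2% called over all genes. Adm and Car9, hypoxia targets, differed by −5.63 ± 1.39 and −5.43 ± 1.61 (adjusted p = 0.00178 and 0.0118), while the glycolytic enzymes Pgk1, Eno1 and Gapdh had differences between 0.07 and 0.24. The glycolysis and hypoxia list had 4 calls below 0 and 1 above among 25 gene IDs. Sc5d, a late enzyme of cholesterol synthesis, differed by −1.62 ± 0.46 (adjusted p = 0.00814), and 20 of the 22 cholesterol genes were not called. Of 14 p53 targets, the kinase gene Plk2 differed by −3.47 ± 0.70, Sesn1 by 1.70 ± 0.41 and the receptor gene Eda2r by 2.06 ± 0.55 (adjusted p = 9.9e-05, 0.00146 and 0.00455). Hsp90b1 and Hspa1a, chaperone genes, differed by 1.21 ± 0.39 and 0.89 ± 0.32, and the co-chaperone gene Dnajb1 by −1.85 ± 0.61 (adjusted p = 0.0222, 0.047 and 0.0255), with 17 of 20 such genes not called. In the sebaceous gland list, the detoxifying enzyme gene Mgst1 and the lipid synthesis gene Dgat2 had called differences of 3.32 ± 0.68 and 1.29 ± 0.43, and the desaturase gene Scd1 of −1.91 ± 0.67 (adjusted p = 0.000117, 0.0266 and 0.0416). Of 24 replication genes, E2f2 was called at 1.81 ± 0.48, Uhrf1 at −1.29 ± 0.47 and Mcm6 at −1.0 ± 0.36 (adjusted p = 0.00443, 0.0474 and 0.0466).

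Markers of other skin cell types had higher effects in Germ than in EpSCs in most lists. Their difference was below 0 for 9 of 9 melanocyte genes, 9 of 10 endothelial, 6 of 7 fibroblast, 5 of 6 dermal papilla, 7 of 8 Schwann cell, 9 of 9 macrophage and 8 of 8 T cell genes. It was below 0 for 4 of 5 Langerhans and dendritic cell genes, 3 of 5 neutrophil and mast cell genes and 2 of 3 pericyte genes. Over all genes the median difference was −0.02. Calls in all these lists are to be read against the 12.2% called over all genes. Among the 8 T cell genes, 1 was called, and 1 had an unadjusted p under 0.05. Some genes count in more than 1 list, such as Thy1 (fibroblast and T cell) and Sox10 (melanocyte and Schwann cell). The calls within each population were unlike between lists. The authors' deposited table called 7 of 9 melanocyte genes higher in Germ and 0 lower in EpSCs. That table called 4 of 7 fibroblast and 2 of 6 dermal papilla genes lower in EpSCs, and 0 of either list in Germ. In bulk RNA of sorted cells, a change in the number of cells of a type and a change in RNA per cell cannot be told apart. Melanocyte genes had median effects of 2.15 in EpSCs and 6.26 in Germ in the authors' deposited table, and Pmel and Mlana, genes of the pigment granule, were called different at −4.76 ± 1.58 and −4.73 ± 1.63 (adjusted p = 0.0273 and 0.0356). The pigment enzyme gene Tyrp1 differed by −4.71 ± 2.13 without a call (adjusted p = 0.133). Fibroblast genes had medians of −2.05 and 2.94 in the authors' deposited table, with called differences for Col3a1 at −7.03 ± 1.92, Fbn1 at −5.74 ± 1.40 and Thy1 at −3.75 ± 1.12 (adjusted p = 0.00561, 0.00152 and 0.0126). Col3a1 encodes a dermal collagen and Fbn1 a microfibril protein.

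Rspo3, a Wnt amplifier of the dermal papilla, had effects of −4.46 in EpSCs and 2.07 in Germ in the authors' deposited table, a difference of −6.52 ± 1.31 (adjusted p = 9.34e-05). Prom1 and Crabp1, also dermal papilla markers, differed by −4.42 ± 1.43 and −5.10 ± 1.82 (adjusted p = 0.0228 and 0.0447). Cdh19, a cadherin gene of Schwann cells, differed by −6.67 ± 2.41 (adjusted p = 0.0474). Endothelial genes had medians of 1.02 and 4.19 in the authors' deposited table, and none of 10 was called different (3 at an unadjusted p under 0.05), with Kdr, a receptor for vascular growth factor, at −5.09 ± 2.07 (adjusted p = 0.0861). Macrophage genes had medians of −1.43 and 1.93 in the authors' deposited table with no call among 9 and none at an unadjusted p under 0.05, and Ptprc, the common leukocyte antigen, had a difference of −5.57 ± 3.23 (adjusted p = 0.273). Epcam, an epithelial adhesion gene that also marks Langerhans cells, differed by 2.68 ± 0.49 (adjusted p = 1.85e-05), and the dendritic cell gene Zbtb46 by −4.13 ± 1.36 (adjusted p = 0.0261). Neutrophil and mast cell genes and pericyte genes gave no call among 5 and 3, with 0 and 1 at an unadjusted p under 0.05. The part of such cells in the differences of Foxp2, Zeb2, Prrx1, the collagens or any other gene was not tested, since levels per library were not used.

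**Figure D5:**
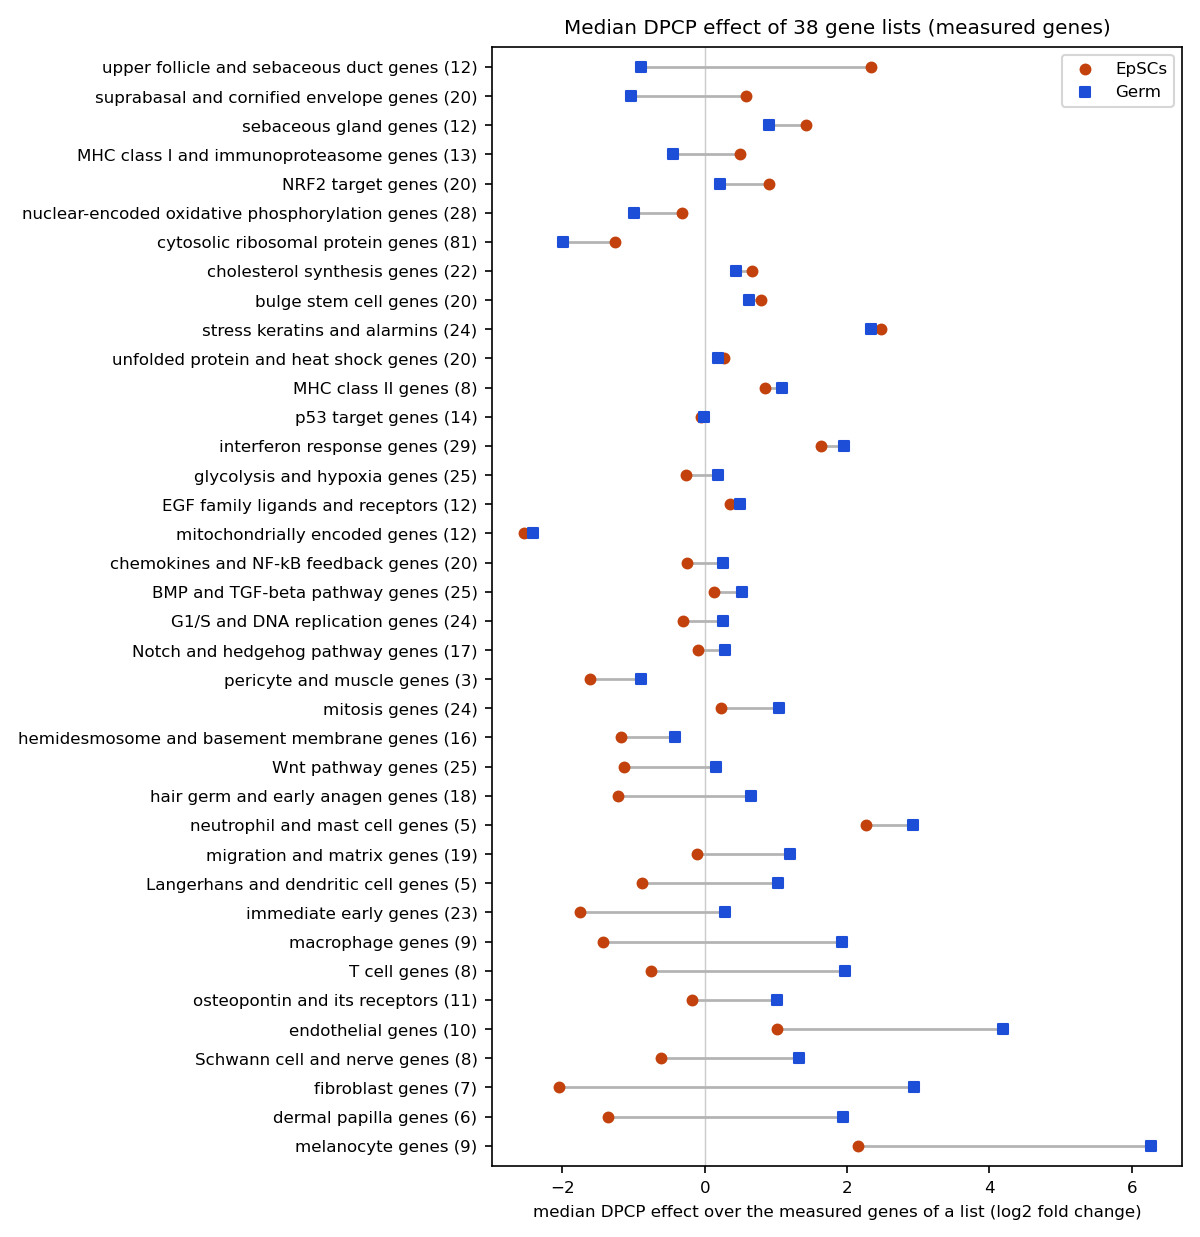
Median DPCP effect (x axis, log2 fold change) in EpSCs and in Germ for 38 gene lists (y axis, with the number of genes measured), ordered by the median difference. Upper follicle and suprabasal genes lie at the top with the higher effect in EpSCs, melanocyte genes lie at the bottom with medians of 2.15 and 6.26, and stress keratins lie in between with medians of 2.47 and 2.34.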

How the data were processed

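RNA of 18 samples of sorted mouse skin cells was sequenced, of which 12 entered here: 3 each of Control EpSCs, DPCP EpSCs, Control Germ and DPCP Germ, grouped by sample title. The labels do not say whether samples came from separate animals, so p-values may measure technical spread only. Per the labels' protocols, libraries were stranded, poly(A) selected and read as paired ends. The submitters' processing notes name STAR 2.7.6a, limma 3.60.6, cutadapt 3.5 and FastQC 0.11.9, with the builds GRCm38 and mm10. Not given in the sources used here are the counter, annotation, filter, normalization and model.

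The deposited table held 13816 gene IDs and 48 columns. Of these, 36 held values per library under names that match no sample label, and they were not used, so depth is unknown and the tests planned on library values were replaced. The authors deposited, for DPCP against control in each population, a log2 fold change per gene. With each fold change the authors deposited its p-value, raw and adjusted, and adjusting the raw ones by Benjamini-Hochberg across the table gave the adjusted ones to within 2e-14. For each effect, the normal quantile of its p-value gave a score, and dividing the size of the effect by it gave a standard error. The difference of both effects was divided by the combined standard error, compared with the normal distribution in 2-sided tests, and adjusted by Benjamini-Hochberg over all 13816 IDs. A gene was called at an adjusted p under 0.05, and intervals are at 95%. This approximation of limma's test treats the libraries of EpSCs and Germ as independent. It was tested on simulated data whose libraries were drawn independently, so that assumption itself was not tested. Unless the authors' deposited table is named, an adjusted p belongs to this test of the difference.

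Genes were named by rule: the 12 largest called differences in each direction without predicted symbols, the 5 largest of each pattern of calls, up to 5 members of each of 38 lists by adjusted p, the 5 smallest p in each direction, and 14 marker genes. Other members and the 12 families of the closing section were named after their values were seen. Some genes that the rule names are not reported here. Members and lists were chosen with earlier results of these data known. Promoter windows came from RefSeq (GRCm38.p6) by symbol. The alternatives were other reference distributions, standard errors, centring, adjustments, thresholds and gene sets. The work used Python 3.11.15, numpy 2.4.6, scipy 1.17.1, pandas 2.3.3 and matplotlib 3.10.9.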

Additional observations from a re-analysis of the deposited data

Results flagged for a closer look

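The DPCP effect itself differed between EpSCs and Germ, by the test of the difference, for 796 genes with the higher effect in EpSCs and 894 with the lower. The authors' deposited table called 21 genes in both populations with opposite signs. The difference was called for each, but effects of opposite sign add up in it, so these calls are no further evidence. The 5 with the largest difference all had the lower effect in EpSCs: Gucy1a1 at −7.56, Gpnmb at −7.38, Kcnn4 at −6.41, Ets1 at −6.26 and Cp at −5.82. In Bulge, the authors' deposited table gave these genes effects of −2.99, −1.88, 0.21, −0.46 and −2.95, of which that of Gpnmb was called (adjusted p = 0.0259).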

How the results depend on the processing

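The count of called differences (1690, with 796 above 0 and 894 below) fell to 931 (441 and 490) with the larger of both standard errors for each gene, to 603 (318 and 285) with the Benjamini-Yekutieli adjustment, to 819 (412 and 407) at an adjusted p under 0.01, and to 305 (140 and 165) when tested against a difference of 1. Each of these settings is stricter by construction. It stayed within 1.5 times under t scores with 4 or 12 degrees of freedom (1809 and 1480), an adjusted p under 0.10 (2431), protein-coding genes only (1677), fold changes under 6 in size (1652) and centring (1777, with 992 above 0 and 785 below). The deposited comparison in EpSCs (5516 calls) gave 2590 under Benjamini-Yekutieli and 3313 under 0.01. That in Germ (146 calls by limma, 3545 genes at an unadjusted p under 0.05) gave 0, 14, and 923 under 0.10. Of 198 named genes with a called difference, 137 kept it with the larger standard error, 121 under Benjamini-Yekutieli and 96 against a difference of 1. The uncalled difference of Ier3 turned from −0.08 to 0.0184 when centred. The median differences of the 50 gene groups kept their sign when the median over all genes was subtracted.

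No paired analysis was possible because the library columns match no sample and carry no replicate number. Leaving out a replicate, other pseudocounts and a filter on low values were not run for the same reason. Levels, depth and single libraries were not examined. The Germ effects had the larger standard error for 77.4% of genes.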

Other observations

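The families below share a symbol or a role. They were chosen after their values were seen, so their counts describe these data and test nothing. The shares called over all genes were 5.76% above 0 and 6.47% below. Of 11 Skint genes, whose member Skint1 is needed for a T cell type of mouse epidermis, 7 had a called difference above 0 (Skint1, Skint2, Skint3, Skint4, Skint8, Skint9 and Skint10) and none below. Skint3 had effects of 3.54 in EpSCs and −1.56 in Germ in the authors' deposited table, a difference of 5.10 ± 0.98 (adjusted p = 3.59e-05). The Skint family had a median effect of 0.87 in EpSCs and −1.76 in Germ in the authors' deposited table. Of 6 gasdermin genes, which encode pore-forming proteins, Gsdma, Gsdma3 and Gsdmc were called above 0, at 4.05 ± 0.83, 5.45 ± 1.16 and 4.47 ± 1.45 (adjusted p = 0.000121, 0.000242 and 0.0231). Gsdmd, which acts in inflammatory cell death, had a difference of −1.77 ± 1.46 (adjusted p = 0.481).

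All 6 glutathione S-transferase mu genes had a difference above 0, and 5 were called, Gstm7 and Gstm5 with the largest at 4.22 ± 0.87 and 4.21 ± 0.79 (adjusted p = 0.000146 and 2.64e-05). All 5 AKR1C aldo-keto reductase genes had a difference above 0, with 3 called, and Akr1c18 led at 5.63 ± 0.95 (adjusted p = 3e-06). In both families the Bulge effects in the authors' deposited table were below 0 for every member. Skint, Gstm and Akr1c genes have near copies between which reads may be split. Of 34 keratin genes, 7 were called above 0 and 1 below, and beside Krt79 and Krt17 these included Krt42, Krt23 and Krt24 at 4.89 ± 1.32, 4.84 ± 1.05 and 4.75 ± 1.15 (adjusted p = 0.00466, 0.000336 and 0.00139). Retinoid genes were divided: the carrier gene Crabp2 differed by 4.84 ± 0.79 (adjusted p = 1.53e-06), while Cyp26b1, which degrades retinoic acid, differed by −4.13 ± 1.27 (adjusted p = 0.0156). Of 20 vacuolar ATPase subunit genes, 5 were called above 0, and Atp6v1c2 led at 5.13 ± 0.81 (adjusted p = 6.92e-07).

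Below 0, 10 of 24 collagen genes were called and 1 was called above, Col8a1. Col6a1, Col16a1 and Col12a1 differed by −6.40 ± 1.28, −5.14 ± 1.01 and −5.79 ± 1.39 (adjusted p = 8.5e-05, 6.67e-05 and 0.00135). Fibroblast markers had differences below 0 for 6 of 7 genes, and their part in this result was not tested. Of 15 KLF genes, 6 were called below 0 and none above, with Klf2 at −4.92 ± 0.88 and Klf9 at −2.96 ± 0.64 (adjusted p = 1.03e-05 and 0.000293). Of 3 metallothionein genes, which encode zinc-binding proteins, Mt1 and Mt2 differed by −3.04 ± 0.55 and −3.50 ± 0.67 (adjusted p = 1.26e-05 and 3.82e-05). Mt4 had effects of −3.54 in EpSCs and −4.93 in Germ in the authors' deposited table, and its difference of 1.39 was not called. Of 14 circadian clock genes, Nr1d1, Npas2 and Bhlhe40 were called below 0, at −3.07 ± 0.64, −3.57 ± 0.93 and −2.70 ± 0.56 (adjusted p = 0.00019, 0.00313 and 0.000137). Of 17 semaphorin genes, 4 were called below 0 and 1 above, with Sema6d at −6.74 ± 1.57 and Sema4g at 3.76 ± 1.04 (adjusted p = 0.000873 and 0.00608).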
